A study of Arabidopsis thaliana with 18 samples.

Results

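The light-harvesting complex of photosystem II, LHCII, is assembled from proteins that 9 nuclear genes of Arabidopsis thaliana encode. LHCB1 has 5 genes (LHCB1.1 AT1G29920, LHCB1.2 AT1G29910, LHCB1.3 AT1G29930, LHCB1.4 AT2G34430 and LHCB1.5 AT2G34420), LHCB2 has 3 (LHCB2.1 AT2G05100, LHCB2.2 AT2G05070 and LHCB2.3 AT3G27690, which is also called LHCB2.4 elsewhere), and LHCB3 has 1 (AT5G54270). The members were taken by these locus names, with no threshold on their values, and all 9 were found among the 27655 genes of the deposited table.

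LHCII binds chlorophyll a and chlorophyll b in the thylakoid membrane and passes the absorbed light energy to photosystem II. Its proteins form trimers: LHCB1 is the main building block, LHCB2 carries the phosphorylation site through which trimers associate with photosystem I, and LHCB3 lacks that site and sits in trimers bound to the photosystem II core with moderate strength. All are made in the cytosol, imported into the chloroplast and inserted into the thylakoid, and transcription of their genes is known to follow light, the circadian clock and signals from the plastid.

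The study sequenced RNA of whole seedlings, 7 days old, kept in short days at either 27 °C or 21 °C, in work on how histone variants take part in growth under moderate warmth. The lines were h3.3kd (labelled h3.3kd-1), a knock-down of the replacement histone H3.3, elf7-3, a mutant of ELF7, which belongs to the Paf1 elongation complex of transcription, and the wild type Col. Each line had 3 libraries at each temperature, so that 18 libraries fell into 6 groups, which share age, day length and the kind of tissue. Each mutant was represented by 1 line or allele, and the labels give neither how H3.3 was reduced in h3.3kd nor the hour of harvest.

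Levels are in TPM (transcripts relative to a fixed library total), the authors' unit, which is scaled for gene length and for the library total. Differences are log2 fold changes of TPM + 1 from limma, fitted over the 20048 genes that reached 1 TPM in at least 3 libraries, and a gene is said to have risen or fallen where its Benjamini-Hochberg adjusted p over all those genes was under 0.05. All 9 members reached 1 TPM in all 18 libraries. The libraries detected 18563 to 19225 genes at 1 TPM or more. The targeted genes were lower in the lines labelled for them: HTR8, an H3.3 gene, was at 14.7 to 19.2 TPM in h3.3kd at 27 °C and 17.3 to 20.7 TPM in h3.3kd at 21 °C, against 184 to 197 TPM in Col at 27 °C and 329 to 354 TPM in Col at 21 °C, while HTR5, another H3.3 gene, was less reduced, at 258 to 271 TPM in h3.3kd at 27 °C and 262 to 281 TPM in h3.3kd at 21 °C, against 432 to 473 TPM in Col at 27 °C and 591 to 611 TPM in Col at 21 °C. HTR4, the third H3.3 gene, was at 51.3 to 58.5 TPM in h3.3kd at 27 °C and 43.8 to 45.5 TPM in h3.3kd at 21 °C, against 330 to 347 TPM in Col at 27 °C and 423 to 429 TPM in Col at 21 °C. ELF7 was at 12.5 to 13.4 TPM in elf7-3 at 27 °C and 8.50 to 9.33 TPM in elf7-3 at 21 °C, against 40.2 to 41.1 TPM in Col at 27 °C and 27.9 to 31.2 TPM in Col at 21 °C. One library stood apart: organelle genes held 3.66% of the TPM in replicate 1 of h3.3kd at 27 °C, against 0.128% to 0.343% in the other 17 libraries. Seedlings were sampled whole, so fewer cells of a type and less RNA per cell cannot be told apart.

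The LHCB1 genes are close copies, so their sequences matter for how far each can be measured on its own. LHCB1.2, LHCB1.1 and LHCB1.3 lie side by side on chromosome 1 (TAIR10.1, chr1:10472280-10473502 on the minus strand, chr1:10474656-10475969 on the minus strand and chr1:10477885-10479114 on the plus strand), 1153 and 1915 bases apart, each as 1 exon. Their coding sequences have 804 bases each without gaps, of which 47 positions differ among the 3 genes. Coding bases 25 to 84, in the part that encodes the chloroplast transit peptide, are shown because they hold 8 of those positions, and no stretch of 60 bases holds more. Capitals mark the bases that differ among the 3 genes, and the windows lie at chr1:10475809-10475868 (minus strand), chr1:10473163-10473222 (minus strand) and chr1:10478095-10478154 (plus strand).
LHCB1.1: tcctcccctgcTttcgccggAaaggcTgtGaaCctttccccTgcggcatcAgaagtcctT
LHCB1.2: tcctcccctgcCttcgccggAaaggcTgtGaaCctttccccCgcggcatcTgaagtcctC
LHCB1.3: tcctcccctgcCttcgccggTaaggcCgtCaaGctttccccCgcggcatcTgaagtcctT

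LHCB1.1 and LHCB1.3 shared 96.1% of their coding bases, LHCB1.1 and LHCB1.2 shared 95.6%, and LHCB1.2 and LHCB1.3 shared 96.4%. LHCB1.4 (chr2:14524607-14525918, plus strand) and LHCB1.5 (chr2:14522524-14523568, minus strand) are divergent neighbours on chromosome 2, 1038 bases apart, with 92.5% coding identity. LHCB2.1 (chr2:1822990-1824480) and LHCB2.2 (chr2:1799234-1800472), both on the minus strand with 2 exons, lie 22517 bases apart with 96.6% coding identity, whereas LHCB2.3 (chr3:10255906-10257489, plus strand) shared 85.8% with LHCB2.1. LHCB3 (chr5:22038165-22039568, plus strand, 3 exons) shared 68.0% to 70.9% of its coding bases with the LHCB1 genes.

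The untranslated regions and scattered differences still set most of each transcript apart from the other copies. Of all windows of 50 bases in the spliced transcript, 20.5% in LHCB1.1, 17.0% in LHCB1.3 and 28.2% in LHCB2.2 occurred unchanged at another locus, and 0% in LHCB2.3 and LHCB3. Genes that overlap the member itself on the chromosome were left out of these shares. Such genes held 100% of the 50-base windows of LHCB1.5, 25.5% of those of LHCB2.3 and 11.5% of those of LHCB3. At 100 bases the shares were 4.44% in LHCB1.1, 3.27% in LHCB1.3 and 12.4% in LHCB2.2, and at 150 bases no member exceeded 0.302%. The longest run common to LHCB1.1 and LHCB1.3 was 119 bases, and that common to LHCB2.1 and LHCB2.2 was 152 bases. How reads that fit several loci were counted is not given in the sources used here. Single-gene levels of LHCB1 and of LHCB2.1 and LHCB2.2 are therefore uncertain, and the sums are given beside them. The sums are uncertain too, because they would miss such reads if these were left out of the counting. The window shares do not bound the error, least of all for a low gene such as LHCB1.1 beside an abundant copy such as LHCB1.3. Whether the libraries kept strand is not known either: LHCB1.5 is covered along its whole length by a long noncoding RNA on the opposite strand (AT2G08665), and the 3′ ends of LHCB1.3, LHCB2.3 and LHCB3 overlap genes on the opposite strand, so reads of these partners cannot be told apart from theirs.

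Upstream of the coding sequence the copies differ. The 250 bases before the annotated start are shown for LHCB1.1 and LHCB1.3, whose coding sequences nearly coincide but whose levels moved by very different amounts, and for LHCB2.1 and LHCB2.2, which moved together. They lie at chr1:10475970-10476219 (minus strand), chr1:10477635-10477884 (plus strand), chr2:1824481-1824730 (minus strand) and chr2:1800473-1800722 (minus strand) in RefSeq's TAIR10.1. Capitals mark matches to 5 short motifs described below that lie wholly within the 250 bases. A further CCAATC of LHCB2.1, at position -4, runs past the end of the stretch and is left in small letters.
LHCB1.1: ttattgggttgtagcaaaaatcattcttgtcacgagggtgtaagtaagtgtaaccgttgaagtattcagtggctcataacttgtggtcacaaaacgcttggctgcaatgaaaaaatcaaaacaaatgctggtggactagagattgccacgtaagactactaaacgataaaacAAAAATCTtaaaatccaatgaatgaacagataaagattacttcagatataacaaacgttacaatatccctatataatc
LHCB1.3: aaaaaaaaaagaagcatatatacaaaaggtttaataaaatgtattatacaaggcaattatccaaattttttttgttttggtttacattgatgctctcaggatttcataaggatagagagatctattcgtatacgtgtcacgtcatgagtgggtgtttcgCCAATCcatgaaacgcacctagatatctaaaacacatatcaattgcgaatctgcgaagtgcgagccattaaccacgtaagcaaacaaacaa
LHCB2.1: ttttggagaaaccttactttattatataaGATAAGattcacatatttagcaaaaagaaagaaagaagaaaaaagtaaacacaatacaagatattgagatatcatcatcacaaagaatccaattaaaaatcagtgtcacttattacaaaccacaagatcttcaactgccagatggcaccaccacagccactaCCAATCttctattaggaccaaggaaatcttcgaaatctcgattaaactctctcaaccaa
LHCB2.2: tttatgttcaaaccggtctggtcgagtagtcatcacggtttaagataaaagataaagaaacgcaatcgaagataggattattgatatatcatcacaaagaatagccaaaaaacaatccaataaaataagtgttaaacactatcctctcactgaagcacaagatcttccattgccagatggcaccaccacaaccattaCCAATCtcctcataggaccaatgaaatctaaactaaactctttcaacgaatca

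Motifs were searched on both strands from 250 bases before to 50 bases after the annotated start in 27443 genes. AAAAATCT, the element bound by the clock protein CCA1, occurred in 7.83% of all promoters and in 3 members: LHCB1.1 at position -78, LHCB1.3 at 14 and LHCB1.4 at -18 and at 11. CCAATC occurred in 12.4% of all promoters and in 5 members (LHCB1.3, LHCB1.5, LHCB2.1, LHCB2.2 and LHCB2.3), the G-box CACGTG in 7.64% of all and in LHCB2.3, the I-box core GATAAG in 14.8% of all and in LHCB2.1, and the evening element AAAATATCT in 2.76% of all and in no member. Over these windows LHCB1.1 and LHCB1.3 were 41.5% identical and LHCB2.1 and LHCB2.2 62.7% identical. LHCB1.1 and LHCB1.5, whose levels also moved by very different amounts, were 56.4% identical, and LHCB1.2 and LHCB1.3 48.4%. Pairs of members ranged from 35.5% (LHCB2.1 and LHCB2.3) to 62.7%. Whether likeness of these windows goes with likeness of the changes was not tested. A match is a run of letters, and no binding was measured here.

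LHCII transcripts were abundant, and 1 gene held most of them. The 9 genes together made up 2.19% to 4.61% of all TPM in a library, and LHCB1.3 alone 1.49% to 2.97%. LHCB1.3 held 65.0% to 75.8% of the summed LHCB1 TPM in h3.3kd, 59.3% to 66.4% in elf7-3 and 67.1% to 69.5% in Col. LHCB1.5 came next with 14.1% to 23.7% over all libraries. The 3 LHCB2 genes stayed at group mean sums of 16.6 to 113 TPM, far below the LHCB1 sums of 22892 to 41789 TPM.

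**Figure D1:**
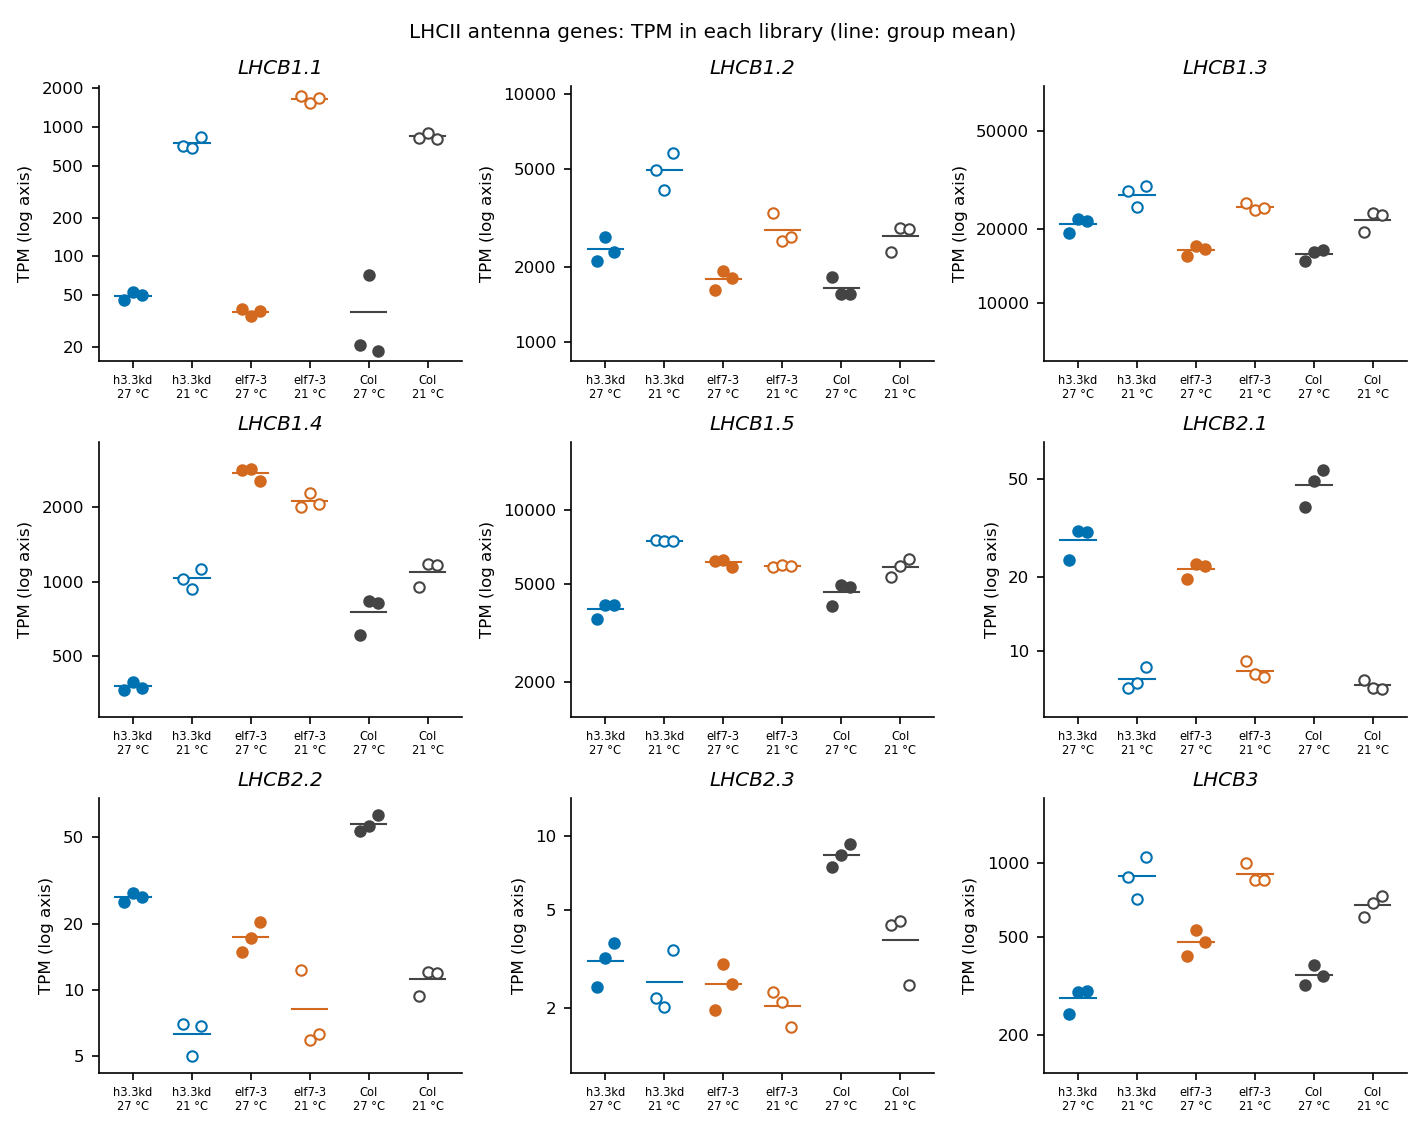
TPM of each LHCII gene in each of the 18 libraries on log axes, with filled points for 27 °C, open points for 21 °C and a line at the mean of each group of 3. LHCB1.1 lies at 18.6 to 72.1 TPM at 27 °C and at 689 to 1737 TPM at 21 °C, while LHCB2.1 and LHCB2.2 lie higher at 27 °C than at 21 °C in every line.

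The first question was how the antenna genes differed between warmth and the lower temperature within each line. In all 3 lines LHCB1.1, LHCB1.2, LHCB1.3 and LHCB3 fell at 27 °C, and LHCB2.1 and LHCB2.2 rose, which makes 6 of the 9 members. The share of all genes that moved the same way in all 3 lines was not counted, so whether 6 of 9 is unusual is not known. In h3.3kd 2 members rose and 6 fell, where 45.8% of all genes tested changed (26.1% rose and 19.7% fell). In elf7-3 3 rose and 4 fell, where 48.1% of all genes changed (29.8% rose and 18.3% fell). In Col 3 rose and 6 fell, where 55.0% of all genes changed (32.9% rose and 22.1% fell). Rises made up 57.0% of all calls in h3.3kd, 62.0% in elf7-3 and 59.8% in Col, and 50.4%, 50.7% and 50.5% in h3.3kd, elf7-3 and Col after median-of-ratios scaling. That scaling sets the typical gene near no change, so a nearly even split is largely built into it. The median log2 change of the members was -0.93 in h3.3kd, 0.05 in elf7-3 and -0.46 in Col, beside 0.04, 0.07 and 0.08 over all genes in h3.3kd, elf7-3 and Col. The temperatures did not overlap for 8 members in h3.3kd, 7 in elf7-3 and 9 in Col, which held for 52.7% of all genes in h3.3kd, 55.2% in elf7-3 and 62.3% in Col.

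LHCB1.1 had the largest change of the 9 in every line. It was at 45.7, 53.3 and 50.3 TPM in h3.3kd at 27 °C, against 721, 689 and 838 TPM in h3.3kd at 21 °C. It was at 39.2, 34.4 and 38.1 TPM in elf7-3 at 27 °C, against 1737, 1546 and 1681 TPM in elf7-3 at 21 °C. It was at 20.8, 72.1 and 18.6 TPM in Col at 27 °C, against 830.2, 908 and 816 TPM in Col at 21 °C. The temperatures are separated widely in all lines, and replicate 2 of Col at 27 °C is the one library out of step with its group.

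The log2 fold change of LHCB1.1 was -3.88 ± 0.30 in h3.3kd (SE, limma adjusted p = 1.42e-08), -5.44 ± 0.30 in elf7-3 (adjusted p = 3.30e-10) and -4.76 ± 0.30 in Col (adjusted p = 8.37e-10). The means were 15.1-fold lower at 27 °C in h3.3kd, 44.4-fold lower in elf7-3 and 22.9-fold lower in Col, and 43.2-fold lower in Col without its replicate 2. LHCB1.1 made up 0.180% ± 0.0030 of the LHCB1 sum in h3.3kd at 27 °C against 1.79% ± 0.091 at 21 °C, 0.138% ± 0.014 in elf7-3 at 27 °C against 4.46% ± 0.16 at 21 °C, and 0.161% ± 0.13 in Col at 27 °C against 2.65% ± 0.24 at 21 °C (SD, n = 3 each). LHCB1.1 shared 13.9% of its windows of 50 bases with LHCB1.3, which was far more abundant at 27 °C. How much of the remaining signal came from reads of LHCB1.3 was not tested.

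The neighbours of LHCB1.1 on chromosome 1 fell far less. LHCB1.3 was at 19283 to 21839.5 TPM in h3.3kd at 27 °C against 24501 to 29747 TPM at 21 °C, at 15574 to 17045 TPM in elf7-3 at 27 °C against 23842 to 25427 TPM at 21 °C, and at 14890.2 to 16451 TPM in Col at 27 °C against 19374 to 23138.5 TPM at 21 °C. The groups did not overlap in any line, and the log2 fold changes were -0.40 ± 0.11 in h3.3kd (limma adjusted p = 0.0058), -0.58 ± 0.11 in elf7-3 (adjusted p = 0.00024) and -0.46 ± 0.11 in Col (adjusted p = 0.0016). Without the filter on low values the LHCB1.3 calls were lost in h3.3kd (adjusted p = 0.11) and Col (adjusted p = 0.060). LHCB1.2 averaged 2360 ± 275 TPM in h3.3kd at 27 °C against 4956 ± 842 TPM at 21 °C, 1783 ± 161 TPM in elf7-3 at 27 °C against 2836 ± 412 TPM at 21 °C, and 1647 ± 151 TPM in Col at 27 °C against 2672 ± 325 TPM at 21 °C (SD, n = 3). Its log2 fold changes were -1.06, -0.66 and -0.69 in h3.3kd, elf7-3 and Col (SE 0.13 each).

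The chromosome 2 pair did not move alike in the 3 lines. LHCB1.4 was at 365, 394 and 372 TPM in h3.3kd at 27 °C, against 1029.9, 937 and 1130.2 TPM in h3.3kd at 21 °C. In elf7-3 it was at 2833, 2858 and 2564 TPM at 27 °C, against 1998, 2288 and 2062 TPM at 21 °C. In Col it was at 610.2, 832 and 823 TPM at 27 °C, against 951, 1174 and 1171 TPM at 21 °C. The temperatures do not overlap in any line, but elf7-3 is higher at 27 °C where h3.3kd and Col are lower.

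The log2 fold change of LHCB1.4 was -1.45 ± 0.11 in h3.3kd (limma adjusted p = 9.41e-09), 0.38 ± 0.11 in elf7-3 (adjusted p = 0.0073) and -0.55 ± 0.11 in Col (adjusted p = 0.00032). LHCB1.5 was at 3623 to 4123 TPM in h3.3kd at 27 °C against 7459 to 7526 TPM at 21 °C, at 5884 to 6281 TPM in elf7-3 at 27 °C against 5843 to 5959 TPM at 21 °C, and at 4095 to 4940 TPM in Col at 27 °C against 5351 to 6320.1 TPM at 21 °C. It fell in h3.3kd (-0.93 ± 0.08) and in Col (-0.34 ± 0.08), and its value in elf7-3 was 0.05 ± 0.08 (limma adjusted p = 0.64).

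**Figure D2:**
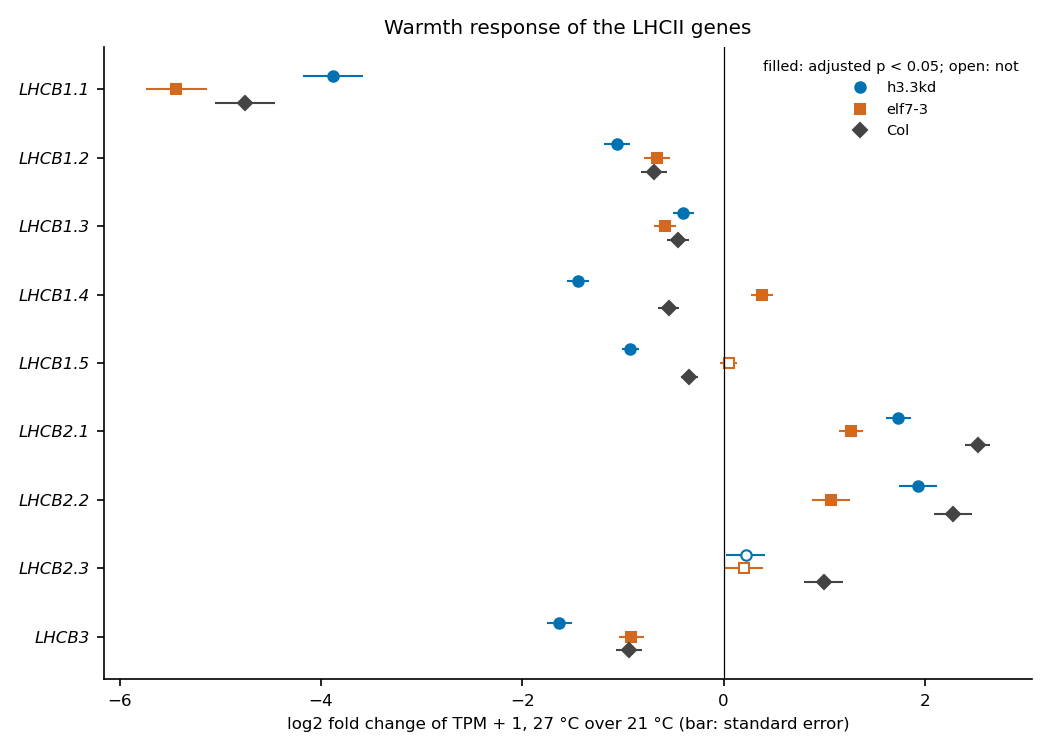
Log2 fold change of TPM + 1 at 27 °C over 21 °C for each LHCII gene in h3.3kd, elf7-3 and Col, with bars for the standard error and filled symbols where the limma adjusted p was under 0.05. LHCB1.1 lies between -5.44 and -3.88, LHCB2.1 and LHCB2.2 lie between 1.07 and 2.52, and LHCB1.4 is positive in elf7-3 alone of the 3 lines.

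The LHCB2 genes went the opposite way from LHCB1.1. LHCB2.1 was at 23.5, 30.8 and 30.5 TPM in h3.3kd at 27 °C, against 7.11, 7.45 and 8.69 TPM in h3.3kd at 21 °C. In elf7-3 it was at 19.6, 22.7 and 22.2 TPM at 27 °C, against 9.12, 8.08 and 7.88 TPM at 21 °C. In Col it was at 38.3, 48.9 and 54.1 TPM at 27 °C, against 7.68, 7.14 and 7.07 TPM at 21 °C. All 27 °C libraries lie above all 21 °C libraries, and Col is the highest line at 27 °C.

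The log2 fold change of LHCB2.1 was 1.74 ± 0.12 in h3.3kd (limma adjusted p = 4.35e-09), 1.26 ± 0.12 in elf7-3 (adjusted p = 1.96e-07) and 2.52 ± 0.12 in Col (adjusted p = 4.38e-11), and the means were 3.65-fold, 2.57-fold and 6.46-fold higher at 27 °C in h3.3kd, elf7-3 and Col. LHCB2.2 was at 25.4, 27.8 and 26.7 TPM in h3.3kd at 27 °C, against 7.01, 5.0 and 6.84 TPM in h3.3kd at 21 °C. In elf7-3 it was at 14.8, 17.2 and 20.4 TPM at 27 °C, against 12.3, 5.90 and 6.27 TPM at 21 °C. In Col it was at 53.4, 56.5 and 63.0 TPM at 27 °C, against 9.39, 12.1 and 12.0 TPM at 21 °C. The temperatures are apart in every line, least so in elf7-3, where replicate 1 at 21 °C lies near the 27 °C libraries.

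LHCB2.2 rose by 1.93 ± 0.19 in h3.3kd, 1.07 ± 0.19 in elf7-3 and 2.27 ± 0.19 in Col on the log2 scale (limma adjusted p = 2.65e-07, 0.00016 and 2.28e-08 in h3.3kd, elf7-3 and Col). LHCB2.3, at 1.67 to 9.28 TPM the least abundant member, rose in Col (log2 fold change 0.99 ± 0.19, limma adjusted p = 0.00028), where it was at 7.43, 8.37 and 9.28 TPM at 27 °C against 4.34, 4.51 and 2.50 TPM at 21 °C. Its values were 0.22 ± 0.19 in h3.3kd (adjusted p = 0.38) and 0.20 ± 0.19 in elf7-3 (adjusted p = 0.42), with overlapping temperatures in both.

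LHCB3 was at 243, 300.1 and 303 TPM in h3.3kd at 27 °C, against 877, 714 and 1056 TPM in h3.3kd at 21 °C. In elf7-3 it was at 417, 535 and 476 TPM at 27 °C, against 999, 846 and 847 TPM at 21 °C. In Col it was at 319, 386 and 347 TPM at 27 °C, against 602, 686 and 732 TPM at 21 °C. No line has overlapping temperatures for LHCB3. It fell by 1.63 ± 0.13 in h3.3kd (limma adjusted p = 1.83e-08), by 0.92 ± 0.13 in elf7-3 (adjusted p = 1.37e-05) and by 0.94 ± 0.13 in Col (adjusted p = 7.35e-06) on the log2 scale.

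Summed over the 9 genes, LHCII was at 27931 ± 1944 TPM in h3.3kd at 27 °C against 42688 ± 3898 TPM at 21 °C, at 27598 ± 1024 TPM in elf7-3 at 27 °C against 37983 ± 1201 TPM at 21 °C, and at 23356 ± 1302 TPM in Col at 27 °C against 32943.5 ± 3046 TPM at 21 °C (SD, n = 3). No library at 27 °C reached the level of any library of its line at 21 °C. The log2 ratio of the mean sums was -0.61 in h3.3kd, -0.46 in elf7-3 and -0.50 in Col, a description without a test. LHCB1.3 and LHCB1.5 make up most of these sums, and LHCB1.1 and the LHCB2 genes little of them. The LHCB2 sum was at 58.0 ± 5.8 TPM in h3.3kd at 27 °C against 16.6 ± 2.3 TPM at 21 °C, at 41.5 ± 4.5 TPM in elf7-3 at 27 °C against 18.6 ± 4.5 TPM at 21 °C, and at 113 ± 14 TPM in Col at 27 °C against 22.2 ± 1.3 TPM at 21 °C.

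**Figure D3:**
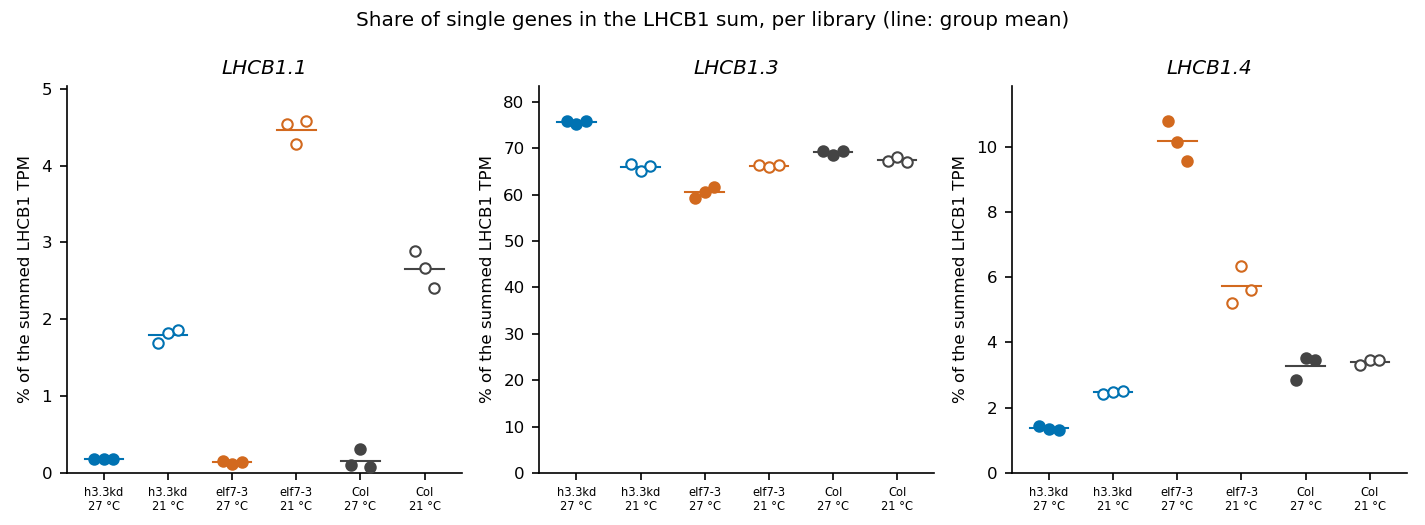
Share of LHCB1.1, LHCB1.3 and LHCB1.4 in the summed LHCB1 TPM of each library, with axes from 0, filled points for 27 °C, open points for 21 °C and a line at the group mean. LHCB1.1 stays under 0.31% at 27 °C, and LHCB1.4 reaches 9.56% to 10.8% in elf7-3 at 27 °C.

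Markers of other organs differed between the temperatures too, and their part in the antenna results was not tested. Of 6 root genes (the iron transporter IRT1 and CASP1 to CASP5 of the Casparian strip) 2 rose in h3.3kd at 27 °C, 1 rose and 1 fell in elf7-3, and 6 rose in Col. Their summed level was 111 to 143 TPM in h3.3kd at 27 °C against 87.0 to 109 TPM at 21 °C, 185 to 247 TPM in elf7-3 at 27 °C against 171 to 201 TPM at 21 °C, and 249 to 309 TPM in Col at 27 °C against 101 to 106 TPM at 21 °C. Of 5 genes for the Rubisco small subunit and activase, taken as markers of green tissue, 1 rose in h3.3kd, 2 fell in elf7-3, and 2 rose and 2 fell in Col. Their sum was 43122 to 46840 TPM in h3.3kd at 27 °C against 43649 to 47717 TPM at 21 °C, 26690 to 29059 TPM in elf7-3 at 27 °C against 29812 to 34477 TPM at 21 °C, and 33601 to 38727 TPM in Col at 27 °C against 36914 to 41453 TPM at 21 °C. Of 9 seed storage genes 2 rose and 2 fell in h3.3kd, 2 rose and 3 fell in elf7-3, and 1 rose and 6 fell in Col. No gene of these lists was at 0 throughout a group.

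The next question was how each mutant differed from Col at the same temperature. The comparisons with h3.3kd and with elf7-3 use the same Col libraries, so their values are set side by side only. In h3.3kd at 27 °C 2 members were higher than in Col (LHCB1.2 and LHCB1.3) and 6 were lower, where 51.8% of all genes differed (20.2% higher and 31.6% lower). In h3.3kd at 21 °C 4 were higher (LHCB1.2, LHCB1.3, LHCB1.5 and LHCB3) and 1 was lower (LHCB2.2), where 33.5% of all genes differed (12.7% higher and 20.8% lower). The median log2 difference of the members was -0.32 at 27 °C and 0.07 at 21 °C, beside -0.07 and -0.05 over all genes at 27 °C and at 21 °C. Over all genes, 39.0% of the calls at 27 °C and 38.0% of those at 21 °C were higher in h3.3kd, and 52.1% and 50.3% after median-of-ratios scaling, which largely builds in an even split.

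With all libraries, the members that differed most between h3.3kd and Col at 27 °C were LHCB2.3, LHCB2.2 and LHCB1.4. Without Col replicate 2 LHCB1.1 came first, at 1.29, ahead of LHCB2.3 at -1.19 and LHCB2.2 at -1.10. LHCB2.3 was at 2.44, 3.2 and 3.68 TPM in h3.3kd at 27 °C, against 7.43, 8.37 and 9.28 TPM in Col, a log2 difference of -1.20 ± 0.19 (limma adjusted p = 5.25e-05). LHCB2.2, with the values given above, differed by -1.08 ± 0.19 (adjusted p = 0.00012) and LHCB1.4 by -0.99 ± 0.11 (adjusted p = 7.18e-07), so that the LHCB1.4 mean was 2.0-fold lower in h3.3kd. LHCB2.1 was lower by 0.71 ± 0.12 on the log2 scale. None of these 4 genes had overlapping groups at 27 °C, where the groups of 57.3% of all genes and of 7 members did not overlap.

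For h3.3kd against Col at 21 °C, LHCB1.4 differed by -0.09 ± 0.11 (limma adjusted p = 0.58), LHCB2.1 by 0.07 ± 0.12 (adjusted p = 0.69) and LHCB2.3 by -0.42 ± 0.19 (adjusted p = 0.10), and LHCB2.2 was lower by 0.74 ± 0.19 (adjusted p = 0.0058). LHCB1.2 was higher in h3.3kd at both temperatures, by 0.52 ± 0.13 at 27 °C (adjusted p = 0.0030) and by 0.88 ± 0.13 at 21 °C (adjusted p = 5.16e-05), with 4112 to 5796 TPM in h3.3kd at 21 °C against 2297 to 2877 TPM in Col. LHCB1.3 was higher by 0.40 ± 0.11 at 27 °C and by 0.34 ± 0.11 at 21 °C, calls that were lost without the filter on low values (limma adjusted p = 0.10 at 27 °C and 0.21 at 21 °C).

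LHCB1.5 and LHCB3 were lower in h3.3kd than in Col at 27 °C (-0.23 ± 0.08 and -0.32 ± 0.13) and higher at 21 °C (0.36 ± 0.08 and 0.38 ± 0.13). Both 27 °C calls (limma adjusted p = 0.029 for LHCB1.5 and 0.047 for LHCB3) were lost without h3.3kd replicate 1, without Col replicate 2 or 3, under median-of-ratios scaling and without the filter on low values. The LHCB3 call was also lost with organelle genes removed, and the LHCB1.5 call with only the groups compared. At 21 °C the LHCB3 and LHCB1.3 calls (adjusted p = 0.031 for LHCB3 and 0.022 for LHCB1.3) were both lost without Col replicate 1 and without h3.3kd replicate 1 or 3. The 21 °C call of LHCB3 was also lost without Col replicate 2 (limma adjusted p = 0.058), and that of LHCB1.3 with only the groups compared (limma adjusted p = 0.071). The count of 5 members called at 21 °C became 3 without Col replicate 1 or without h3.3kd replicate 1, and 6 without Col replicate 3, when LHCB2.3 was also called. Over all genes, 6725 calls became 5297, 5370 and 5569 in these fits, in that order. LHCB1.1 differed by 0.69 ± 0.30 at 27 °C (adjusted p = 0.063) and by -0.19 ± 0.30 at 21 °C (adjusted p = 0.67). Without Col replicate 2 at 27 °C, singled out after its value was seen, the 27 °C difference was 1.29 with adjusted p = 8.55e-09. Leaving out 1 library at a time gave 0.34 to 1.29 at 27 °C, and the limma adjusted p reached 0.35 among the alternatives.

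In elf7-3 at 27 °C 3 members were higher than in Col (LHCB1.4, LHCB1.5 and LHCB3) and 3 were lower (LHCB2.1, LHCB2.2 and LHCB2.3), where 34.9% of all genes differed (16.4% higher and 18.5% lower). In elf7-3 at 21 °C 3 were higher (LHCB1.1, LHCB1.4 and LHCB3) and 1 was lower (LHCB2.3), where 28.7% of all genes differed (13.3% higher and 15.4% lower). The median log2 difference of the members was 0.11 at 27 °C and 0.17 at 21 °C, beside -0.01 over all genes at each temperature.

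LHCB1.4 had the largest difference of the 9 at 27 °C in elf7-3. With 2833, 2858 and 2564 TPM in elf7-3 at 27 °C, against 610.2, 832 and 823 TPM in Col, its mean was 3.64-fold higher (log2 difference 1.88 ± 0.11, limma adjusted p = 2.77e-09). At 21 °C its mean was 1.93-fold higher (0.95 ± 0.11, adjusted p = 6.02e-06). Its share of the LHCB1 sum was 10.2% ± 0.61 in elf7-3 at 27 °C against 3.28% ± 0.38 in Col, and 5.72% ± 0.56 in elf7-3 at 21 °C against 3.40% ± 0.087 in Col (SD, n = 3). LHCB1.5, its divergent neighbour, was higher in elf7-3 by 0.41 ± 0.08 at 27 °C (adjusted p = 0.0011) and differed by 0.01 ± 0.08 at 21 °C (adjusted p = 0.92).

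All 3 LHCB2 genes were lower in elf7-3 than in Col at 27 °C. LHCB2.2 differed by -1.67 ± 0.19 (limma adjusted p = 3.94e-06), its mean being 3.29-fold lower. LHCB2.3 was at 1.97, 3.02 and 2.51 TPM in elf7-3 at 27 °C, against 7.43, 8.37 and 9.28 TPM in Col (-1.43 ± 0.19, adjusted p = 2.33e-05), and LHCB2.1 differed by -1.09 ± 0.12 (adjusted p = 3.25e-06). The groups of these genes did not overlap at 27 °C, as held for 6 members and for 45.7% of all genes. At 21 °C LHCB2.1 differed by 0.17 ± 0.12 (adjusted p = 0.31), LHCB2.2 by -0.47 ± 0.19 (adjusted p = 0.075) and LHCB2.3 by -0.63 ± 0.19 (adjusted p = 0.020). Without elf7-3 replicate 1 the LHCB2.2 difference at 21 °C was -0.77 (adjusted p = 0.00078), and the LHCB2.3 call was lost without Col replicate 1 or 2 or without elf7-3 replicate 3.

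LHCB1.1 was 1.94-fold higher in elf7-3 than in Col at 21 °C, with 1737, 1546 and 1681 TPM in elf7-3 against 830.2, 908 and 816 TPM in Col (log2 difference 0.96 ± 0.30, limma adjusted p = 0.023). The groups lie far apart, and the standard error, which the 6 groups share, includes the spread of Col at 27 °C. The call was lost in 4 of the 6 fits that left out 1 library of the groups compared (adjusted p 0.058 to 0.061), while the difference stayed at 0.92 or more. At 27 °C the difference was 0.28 ± 0.30 (adjusted p = 0.50), and 0.89 (adjusted p = 2.57e-06) without Col replicate 2. Leaving out 1 library at a time gave -0.063 to 0.89 for LHCB1.1 at 27 °C. LHCB3 was higher in elf7-3 by 0.44 ± 0.13 at 27 °C and by 0.41 ± 0.13 at 21 °C (adjusted p = 0.013 and 0.022). The 27 °C call of LHCB3 was lost without Col replicate 1 or elf7-3 replicate 2, and the 21 °C call without Col replicate 1 or elf7-3 replicate 1. The count of 4 members called at 21 °C became 1 without Col replicate 1 and 2 without elf7-3 replicate 3. Over all genes, 5751 calls became 4454 and 4506 in these fits, in that order.

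**Figure D4:**
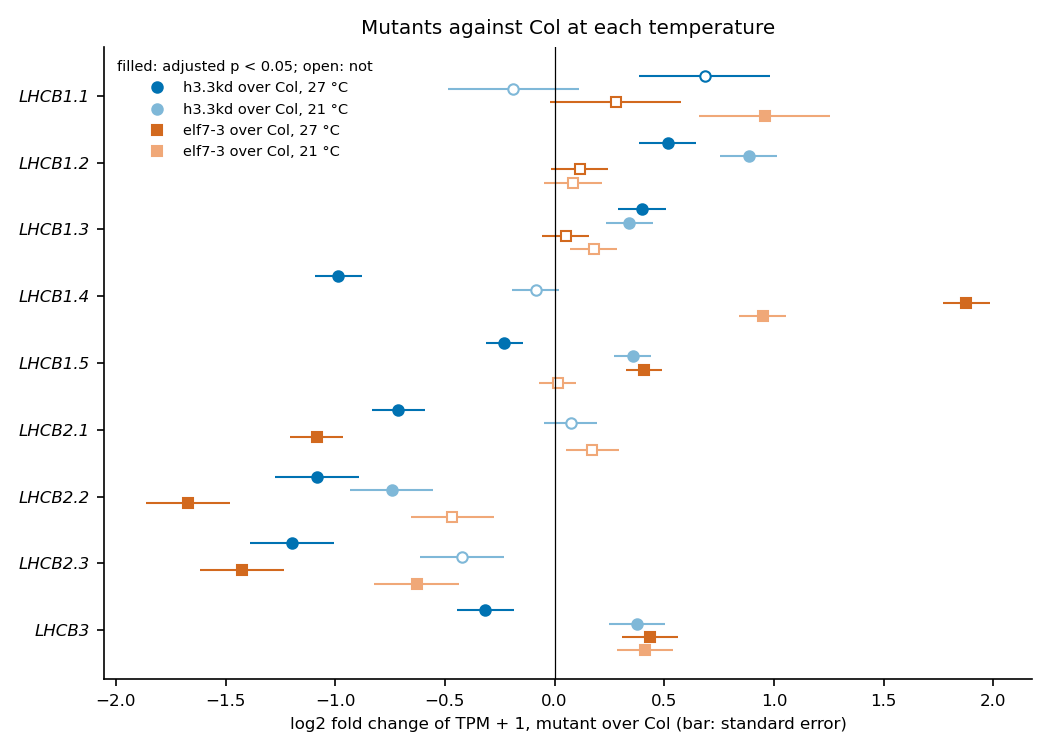
Log2 difference of TPM + 1 of each mutant over Col at 27 °C (dark) and at 21 °C (light) for each LHCII gene, h3.3kd as circles and elf7-3 as squares, with bars for the standard error and filled symbols where the limma adjusted p was under 0.05. LHCB1.4 lies at -0.99 in h3.3kd and 1.88 in elf7-3 at 27 °C, and all 3 LHCB2 genes lie at or below -0.71 in both mutants at 27 °C.

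Organ markers differed between the mutants and Col as well, and their part was not tested. Of the 6 root genes 6 were lower in h3.3kd at 27 °C (sums of 111 to 143 TPM against 249 to 309 TPM in Col), and 2 were higher and 2 lower in h3.3kd at 21 °C. In elf7-3 4 were lower at 27 °C (185 to 247 TPM against the same Col values) and 5 were higher at 21 °C (171 to 201 TPM against 101 to 106 TPM in Col). Of the 5 Rubisco genes 4 were higher in h3.3kd at 27 °C and 2 at 21 °C, while 3 were lower in elf7-3 at 27 °C and 4 at 21 °C. Seed storage genes summed to 200.02 to 256 TPM in h3.3kd at 27 °C, where 2 of 9 were higher and 1 was lower, against 106 to 141 TPM in Col, and to 59.6 to 117 TPM in h3.3kd at 21 °C, where 1 was higher and 6 were lower, against 115 to 179 TPM in Col. In elf7-3 the seed storage sums were 96.8 to 127 TPM at 27 °C, where 1 of 9 was lower, and 81.4 to 119.8 TPM at 21 °C, where 1 was higher and 2 were lower.

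Whether the warmth response itself differed from that of Col was tested as the mutant's log2 fold change minus that of Col. In h3.3kd the response of 4 members was lower than in Col and that of none was higher, where 18.4% of all genes differed (8.37% higher and 10.0% lower). The differences were -0.90 ± 0.15 for LHCB1.4 (limma adjusted p = 0.00063), -0.58 ± 0.12 for LHCB1.5 (adjusted p = 0.0025), -0.79 ± 0.17 for LHCB2.1 (adjusted p = 0.0041) and -0.69 ± 0.18 for LHCB3 (adjusted p = 0.013). LHCB1.4, LHCB1.5 and LHCB3 thus fell further in h3.3kd, and LHCB2.1 rose less. LHCB2.3 lay at -0.77 ± 0.27 (adjusted p = 0.056) and passed without Col replicate 2 at 21 °C (0.044), h3.3kd replicate 2 at 21 °C (0.047) or h3.3kd replicate 3 at 27 °C (0.045). LHCB1.1 had a difference of 0.87 ± 0.42 (adjusted p = 0.165), which became 1.48 (adjusted p = 9.54e-07) without Col replicate 2 at 27 °C. That library was singled out after its value was seen. Leaving out 1 library at a time gave 0.53 to 1.48, and the limma adjusted p reached 0.40 among the alternatives.

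In elf7-3 the response of 1 member was higher and that of 2 was lower than in Col, where 7.25% of all genes differed (3.75% higher and 3.51% lower). LHCB1.4 had a difference of 0.93 ± 0.15 (limma adjusted p = 0.0014), the elf7-3 response being a rise and that of Col a fall. LHCB2.1 (-1.26 ± 0.17, adjusted p = 0.00029) and LHCB2.2 (-1.20 ± 0.27, adjusted p = 0.011) rose less in elf7-3. LHCB1.5 lay at 0.39 ± 0.12 with adjusted p = 0.052 and LHCB2.3 at -0.80 ± 0.27 with adjusted p = 0.086. LHCB1.5 passed with a 5 TPM filter (adjusted p = 0.034), library weights (0.039), organelle genes removed (0.044) and the replicate block (0.049), and without Col replicate 1 at 21 °C (0.038) or Col replicate 2 at 27 °C (0.044). LHCB1.1 was at -0.68 ± 0.42 (adjusted p = 0.37), and at -0.07 without Col replicate 2 at 27 °C. Its range with 1 library left out at a time was -1.02 to -0.07. LHCB1.2, LHCB1.3 and LHCB3 had differences of 0.03 ± 0.18, -0.13 ± 0.15 and 0.02 ± 0.18. The warmth response of root markers was lower than in Col for 5 of 6 genes in h3.3kd and for 6 of 6 in elf7-3.

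Ordered by group mean, the members had different profiles. LHCB1.1 was highest in elf7-3 at 21 °C (1655 ± 98 TPM), then in Col (851 ± 50 TPM) and h3.3kd (749 ± 79 TPM) at 21 °C, whose libraries overlapped, and then in the 3 lines at 27 °C. LHCB1.4 was highest in elf7-3 at 27 °C (2752 ± 163 TPM), then in elf7-3 at 21 °C (2116 ± 153 TPM), and lowest in h3.3kd at 27 °C (377 ± 16 TPM), with only Col and h3.3kd at 21 °C overlapping as neighbours in that order. LHCB2.1 and LHCB2.2 were highest in Col, then in h3.3kd, then in elf7-3, all at 27 °C and none overlapping the next, while neighbours in the order at 21 °C overlapped. At 21 °C LHCB2.2 did not overlap between h3.3kd and Col, and LHCB2.1 did not overlap between elf7-3 and Col. LHCB2.3 was higher in Col at 27 °C (8.36 ± 0.93 TPM) than in the next group, Col at 21 °C (3.78 ± 1.12 TPM), and the remaining neighbours overlapped. LHCB3 had all 3 groups at 21 °C above all 3 at 27 °C. LHCB1.2, LHCB1.3 and LHCB1.5 were each highest in h3.3kd at 21 °C, and only for LHCB1.3 of these did the next group in the order, elf7-3 at 21 °C, overlap it. LHCB1.2 and LHCB1.3 were lowest in Col at 27 °C, which overlapped elf7-3 at 27 °C, and LHCB1.5 was lowest in h3.3kd at 27 °C, which overlapped Col at 27 °C.

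Across the 18 libraries, as a description over 6 groups of 3 libraries, log2(TPM + 1) of LHCB1.1 had a Pearson r of -0.92 with LHCB2.1 and 0.88 with LHCB3, LHCB2.1 and LHCB2.2 had 0.94, LHCB1.2 and LHCB1.3 had 0.93, and LHCB1.4 and LHCB1.5 had 0.68. The genes outside LHCII with the profile most like that of LHCB1.1, among 15665 genes averaging 5 TPM or more, were AT1G67700, AT5G09315, HAM1, AT3G05560 and AT1G32470 (r of 0.97 to 0.98 over the 18 libraries). Those most like LHCB2.1 were BRI1, GC5, AT5G22850, AT4G08160 and NHX4 (0.97 to 0.98), and those most like LHCB3 were FAD3, PnsL4, CIPK3, SWEET1 and mtLPD2 (0.95 to 0.97).

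Genes that work with LHCII were counted in lists. Of all genes tested, 45.8% changed at 27 °C in h3.3kd, 48.1% in elf7-3 and 55.0% in Col, and no list was tested against these shares. The minor antenna list holds LHCB4, LHCB5 and LHCB6, monomeric relatives of the trimer proteins, and LHCB7, and 3 of its 6 genes rose at 27 °C in h3.3kd, 4 rose and 1 fell in elf7-3, and 5 rose in Col. LHCB4.2 rose by 1.86 ± 0.15 in h3.3kd, 1.56 ± 0.15 in elf7-3 and 2.57 ± 0.15 in Col, and LHCB6 by 1.14 ± 0.09 in h3.3kd, 0.97 ± 0.09 in elf7-3 and 1.63 ± 0.09 in Col on the log2 scale. The LHCB4.2 mean was 865 ± 94 TPM in h3.3kd at 27 °C against 237 ± 21 TPM at 21 °C, 509 ± 9.7 TPM in elf7-3 at 27 °C against 178 ± 65 TPM at 21 °C, and 1043 ± 47 TPM in Col at 27 °C against 175 ± 13 TPM at 21 °C. The warmth response of LHCB4.2 was lower than in Col in h3.3kd (-0.71 ± 0.22) and in elf7-3 (-1.01 ± 0.22). LHCB4.3 went the other way in h3.3kd, where it rose by 2.27 ± 0.13 at 27 °C and its warmth response was higher than in Col by 1.94 ± 0.18 (limma adjusted p = 2.68e-06). Of the 6 LHCA genes for the antenna of photosystem I, 4 fell in h3.3kd, 2 rose and 3 fell in elf7-3, and 2 rose and 3 fell in Col.

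Of the 5 genes for targeting LHCII to the thylakoid, 2 rose and 2 fell in h3.3kd, 2 rose and 3 fell in elf7-3, and 1 rose and 3 fell in Col at 27 °C. CPSRP43, the signal recognition particle subunit that holds LHCII in solution, rose by 0.49 ± 0.05 in h3.3kd, 0.62 ± 0.05 in elf7-3 and 0.40 ± 0.05 in Col, and its receptor CPFTSY fell by 0.30 ± 0.06, 0.52 ± 0.06 and 0.33 ± 0.06 in h3.3kd, elf7-3 and Col. Of 4 kinases and phosphatases of antenna and photosystem II proteins, 4 rose in h3.3kd, 2 in elf7-3 and 3 in Col. STN7, the kinase of LHCB1 and LHCB2, rose by 0.77 ± 0.07 in h3.3kd, 0.90 ± 0.07 in elf7-3 and 0.86 ± 0.07 in Col, and was lower in elf7-3 than in Col at 27 °C (-0.66 ± 0.07) and at 21 °C (-0.69 ± 0.07).

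CAO, which makes the chlorophyll b that LHCII binds, rose by 1.46 ± 0.14 in h3.3kd, 1.65 ± 0.14 in elf7-3 and 1.85 ± 0.14 in Col, and of the 5 genes for chlorophyll b turnover 1 rose in h3.3kd, 4 in elf7-3 and 2 in Col, with none falling. Of 8 photoprotection genes tested out of 9, 3 rose and 3 fell in h3.3kd, 1 rose and 2 fell in elf7-3, and 2 rose and 4 fell in Col, with ZEP, the zeaxanthin epoxidase, at 1.59 ± 0.08 in h3.3kd, 0.41 ± 0.08 in elf7-3 and 1.22 ± 0.08 in Col. Of 9 nuclear photosystem II subunits 1 rose and 3 fell in h3.3kd, 2 rose and 4 fell in elf7-3, and 4 rose and 1 fell in Col.

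Among 10 regulators of LHCB transcription tested out of 13, 4 rose and 3 fell in h3.3kd, 4 rose and 3 fell in elf7-3, and 5 rose and 5 fell in Col at 27 °C. PIF5, a phytochrome-interacting factor, rose by 0.76 ± 0.12 in h3.3kd, 1.76 ± 0.12 in elf7-3 and 1.75 ± 0.12 in Col, and its warmth response was lower than in Col in h3.3kd (-0.98 ± 0.17). CGA1, a GATA factor of chloroplast development, had log2 fold changes of -1.30 ± 0.08 in h3.3kd, -0.79 ± 0.08 in elf7-3 and -1.25 ± 0.08 in Col, a fall in each. GLK1, an activator of LHCB genes, was lower in h3.3kd than in Col at 21 °C (-0.68 ± 0.11), and its close relative GLK2 was lower in elf7-3 than in Col at 27 °C (-0.36 ± 0.09) and at 21 °C (-0.82 ± 0.09). Within elf7-3, GLK2 rose by 1.06 ± 0.09 at 27 °C. The clock genes CCA1 and LHY did not pass the filter, with group means of at most 0.698 TPM and 1.12 TPM.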

How the data were processed

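RNA-seq of 18 libraries was used. The 9 genes and all gene lists were chosen with earlier results of these data known. The deposited table holds TPM made by the authors for 27655 genes, with Araport11 row names. Tools listed by the submitters' processing notes, without roles, are fastp 0.20.1, HISAT2 2.1.10, HTSeq 0.11.2 and DESeq2 1.26.0, and the build is TAIR10. How TPM were computed, depth, strandedness and the treatment of multi-mapped reads are not given in the sources used here. TPM keeps no depth, so no counting interval is given.

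Values were taken as log2(TPM + 1), a scale that understates changes of low genes such as LHCB2.3. The 20048 genes that reached 1 TPM in 3 or more libraries entered one limma model (limma 3.58.1, R 4.3.3) with a mean for each group and 12 residual degrees of freedom. Tests were two-sided with Benjamini-Hochberg adjustment. The model was also run on simulated data in which each gene had the same spread in every group. Changes were planted there only in genes averaging above about 5 TPM. That run does not cover unequal spread, as for LHCB1.1, or low genes such as LHCB2.3. Nothing in the labels states that replicates came from separate cultures, so the p-values reflect only how these libraries vary, which can be technical variation. Alternatives were a pseudocount of 0.1, no filter, a 5 TPM filter, scaling by median of ratios, removal of organelle genes, library weights, a replicate block, only the groups compared, and each library left out. In the other lists, called genes among the 3 largest changes of a comparison could be named.

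Sequences and positions came from RefSeq's TAIR10.1 by locus name, read with Python 3.11.15, Biopython 1.88, pandas 2.3.3 and numpy 2.4.6, and figures were drawn with matplotlib 3.10.9.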

Additional observations from a re-analysis of the deposited data

Results flagged for a closer look

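The results flagged here are those in which the warmth response of a mutant differed from that of Col by the limma interaction test, as a log2 fold change of the mutant minus that of Col. In h3.3kd these were LHCB1.4 (-0.90), LHCB1.5 (-0.58), LHCB2.1 (-0.79) and LHCB3 (-0.69). In elf7-3 they were LHCB1.4 (0.93), LHCB2.1 (-1.26) and LHCB2.2 (-1.20). The sign for LHCB1.4 is negative in h3.3kd and positive in elf7-3, and both share the Col libraries. Root markers had lower warmth responses than Col in h3.3kd for 5 of 6 genes and in elf7-3 for 6 of 6, and their part was not tested. Groups of 3 were not tested for single outlying libraries; LHCB1.1 at 72.1 TPM in replicate 2 of Col at 27 °C, beside 20.8 and 18.6 TPM, was noticed after its values were seen.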

How the results depend on the processing

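Of 81 single-gene results for the members, 54 were called, and 43 of these kept their call and direction under every alternative run. Over all genes, the share called ranged from 7.25% (warmth response of elf7-3 minus that of Col) to 55.0% (warmth in Col). How many calls of all genes kept under every alternative was not counted. The comparisons reuse the same libraries, so the 81 results are not independent. Of 1242 alternative values 35 lost a call, 17 gained one and 19 changed sign, and no called result changed sign.

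Members called in h3.3kd against Col at 27 °C numbered 5 without the filter on low values, against 8 with it. Over all genes, 10536 of 23968 were called without the filter and 10384 of 20048 with it. Leaving out single libraries gave 3 to 6 members in h3.3kd against Col at 21 °C and 1 to 4 in elf7-3 against Col at 21 °C. Calls over all genes fell as well in these fits. They went from 6725 to between 5297 and 6034 for h3.3kd, and from 5751 to between 4454 and 5013 for elf7-3. The log2 ratio of the LHCII sum for warmth in elf7-3 was -0.54 with median-of-ratios scaling. The causes were not tested.

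None of the values that changed sign was called with all libraries. For warmth in elf7-3, LHCB1.5 was at -0.022 with median-of-ratios scaling. Leaving out 1 library gave -0.0029 to 0.13 for LHCB2.1 in h3.3kd against Col at 21 °C, -0.032 to 0.16 for LHCB1.2 and -0.051 to 0.069 for LHCB1.5 in elf7-3 against Col at 21 °C, and -0.063 to 0.89 for LHCB1.1 in elf7-3 against Col at 27 °C. For the warmth response minus that of Col it gave -0.025 to 0.14 for LHCB1.3 in h3.3kd, and -0.044 to 0.15 for LHCB1.2 and -0.064 to 0.11 for LHCB3 in elf7-3.

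Same-numbered libraries of different groups shared little of their deviations: 4 of 45 such pairs were correlated above 0.1 (range -0.154 to 0.168). Differently numbered pairs were not compared, and the labels name no batch. Whether same-numbered libraries were prepared together is therefore not known. With the replicate number as a block, 4 members instead of 3 differed in the warmth response of elf7-3 from that of Col, the addition being LHCB1.5 (limma adjusted p = 0.049), and the block changed no other call of a member. TPM without read depth limits what can be said of LHCB2.3, the only member mostly below 5 TPM.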
